A study of Mus musculus with 4 samples.

Results

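The genes described here are 8 transcription factors that direct the formation of neural progenitors and neurons and have little known role in the limb: Pax6, Sox1, Olig2, Neurod1, Neurog1, Neurog2, Nkx2-2 and Nkx6-1. They were listed by name, and no measured value enters the rule. The GENCODE M1 annotation names 7 of them among its 22367 protein-coding genes. Sox1 has no entry of that name there, so its start was placed by matching its RefSeq promoter sequence to the NCBIM37 genome, and its values are given apart from the counts over the 7 annotated genes. The assay was ATAC-seq, in which the Tn5 transposase cuts and tags open DNA. It was run on fixed cells from forelimbs and hindlimbs of E11.5 mouse embryos, and the strain c57bl6.J X 129S6.sv is common to all libraries. Of the 4 libraries, 2 came from embryos with a stop cassette insertion, which the sample titles call 3xpA, and 2 from wild-type embryos. The labels do not say where the cassette was inserted, whether the embryos were heterozygous or how many embryos or limbs entered a library. The study concerns Maenli, a long non-coding RNA locus on which engrailed-1 expression in the limb depends. The question asked of these genes was whether their promoters were open in limb cells without an accompanying set of distal open regions.

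In the neural tube these factors act in sequence. SOX1 marks the neuroepithelium, PAX6, NKX6-1, NKX2-2 and OLIG2 divide the progenitors along the dorsoventral axis, NEUROG1 and NEUROG2 commit progenitors to a neuronal fate, and NEUROD1 acts in differentiating neurons. Outside the nervous system PAX6, NKX6-1, NKX2-2 and NEUROD1 also act in the endocrine pancreas. Many regulators of this kind start in CpG islands, stretches of DNA rich in the dinucleotide CpG, and such starts are commonly accessible in cells that do not express the gene. Distal enhancers are as a rule more specific to a cell type than promoters are.

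The sequences just upstream of 5 starts are shown because they let the density of CpG at these promoters be seen, which is high in 4 of the 5. Each is given 5′ to 3′ in the direction of the gene, as the 180 bases before the start on NCBIM37 (mm9), with every CpG in capitals. The Nkx6-1 stretch is chr5:102094246-102094425 on the minus strand and holds 16 CpG. The Olig2 stretch is chr16:91225615-91225794 on the plus strand with 17. The Neurog1 stretch is chr13:56353525-56353704 on the minus strand with 19. The Sox1 stretch is chr8:12395339-12395518 on the plus strand with 22. The Neurog2 stretch, chr3:127335874-127336053 on the plus strand, has 6 and is the poorest of the 5 in CpG. Not shown are the starts of Pax6, Nkx2-2 and Neurod1. Over the 1000 bp around the most 5′ start these had the lowest ratios of observed to expected CpG of the group, 0.566, 0.626 and 0.681.
Nkx6-1: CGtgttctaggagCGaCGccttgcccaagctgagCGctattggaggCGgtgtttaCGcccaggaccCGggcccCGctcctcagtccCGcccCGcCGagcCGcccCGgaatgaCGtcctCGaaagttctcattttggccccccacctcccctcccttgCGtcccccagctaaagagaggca
Olig2: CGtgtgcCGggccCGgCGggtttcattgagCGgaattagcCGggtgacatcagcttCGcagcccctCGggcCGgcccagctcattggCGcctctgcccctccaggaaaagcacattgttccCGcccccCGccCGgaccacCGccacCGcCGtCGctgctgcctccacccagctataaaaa
Neurog1: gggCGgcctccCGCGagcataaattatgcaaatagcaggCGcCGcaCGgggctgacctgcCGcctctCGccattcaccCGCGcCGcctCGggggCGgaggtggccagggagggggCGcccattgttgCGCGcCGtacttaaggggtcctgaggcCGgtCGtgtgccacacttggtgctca
Sox1: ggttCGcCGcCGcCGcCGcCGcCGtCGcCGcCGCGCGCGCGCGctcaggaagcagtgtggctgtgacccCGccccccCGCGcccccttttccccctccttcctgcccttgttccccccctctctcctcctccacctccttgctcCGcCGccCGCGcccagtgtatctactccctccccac
Neurog2: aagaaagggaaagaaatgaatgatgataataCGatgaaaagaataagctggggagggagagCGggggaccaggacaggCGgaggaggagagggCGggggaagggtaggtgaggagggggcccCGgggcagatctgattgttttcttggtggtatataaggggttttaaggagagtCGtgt

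Every annotated member had a promoter summit, a called position of highest signal within 1 kb of one of its annotated starts, in at least 3 of the 4 lists. Pax6, Olig2, Neurog2 and Nkx6-1 had one in all 4 lists, which is 4 of 7. Over all protein-coding genes the share with a promoter summit in all 4 lists was 57.5%, so the members' count lay at the background. By list, 4 of 7 members had a promoter summit in stop cassette replicate 1 and 7 in each other list. The shares over all genes were 61.5% and 64.5% in the stop cassette lists and 59.1% and 61.6% in the wild-type lists. Neurod1, Neurog1 and Nkx2-2 each had one in 3 lists, and in all 3 cases the list without it was that of stop cassette replicate 1. A promoter summit in 1 to 3 lists was found for 7.99% of protein-coding genes, in exactly 3 for 3.15% and in every list but that one for 0.729%, and 34.5% had no promoter summit in any list. With Sox1, 5 of 8 genes had a promoter summit in all 4 lists. Without stop cassette replicate 1, all 7 annotated members had one in each of the other 3 lists. Among all protein-coding genes, those with a promoter summit in these 3 lists are the 57.5% and the 0.729% given above. With the lists cut to equal length, Olig2 and Nkx6-1 alone had a promoter summit in all 4, against 54.7% of all protein-coding genes.

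The strength of a summit is given as the percentile of its score within its own list, from the weakest peak to the strongest, because scores of different lists depend on depth. Among the ventral progenitor factors Nkx6-1 (ENSMUSG00000035187.8, chromosome 5, 102087158 to 102094245, minus strand) had the strongest promoter of the group. Its percentiles were 82.0 and 89.2 in the stop cassette lists and 88.0 and 86.5 in the wild-type lists. The values of the genotypes overlapped, and the nearest summit of each list lay 128 to 146 bp from the single annotated start. In stop cassette replicate 2 and wild-type replicate 2 that nearest summit was a weaker one, at 14.5 and 32.2. The strongest summit of stop cassette replicate 2 lay 216 bp upstream. Olig2 (ENSMUSG00000039830.8, chromosome 16, 91225795 to 91228922, plus strand), which specifies motor neuron and oligodendrocyte progenitors, had 45.1 and 76.3 with the stop cassette and 38.1 and 55.3 in wild type. Its summits lay 131 to 239 bp upstream of the start. Both replicate 2 lists ranked the Olig2 promoter above both replicate 1 lists.

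Nkx2-2 (ENSMUSG00000027434.9, chromosome 2, 147003282 to 147019979, minus strand), the factor of the most ventral neural progenitors, showed how the 1 kb limit decided a call. Its promoter percentiles were 45.8 in stop cassette replicate 2, 39.3 in wild-type replicate 1 and 25.4 in wild-type replicate 2. Stop cassette replicate 1 had no summit inside the limit. Its nearest summit lay 1160 bp from a start, at the 44.1 percentile, in the same region (chr2:147020416-147021572) that the other lists hold. With a limit of 2 kb Nkx2-2 therefore counted as open in all 4 lists. The nearest summits of the other lists lay 474 to 688 bp from a start.

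Pax6 (ENSMUSG00000027168.12, chromosome 2, 105509053 to 105543317, plus strand) has 29 annotated starts, of which those inside the gene carried the signal. Its percentiles were 28.2 and 71.8 with the stop cassette and 35.6 and 55.8 in wild type. The region held by all 4 lists, chr2:105515175-105516001, lay over UTR sequence of the gene. The 55.8 of wild-type replicate 2 came from a neighbouring region at a further internal start, chr2:105516138-105516842, and its value in the shared region was 12.95. At the most 5′ group of starts only stop cassette replicate 2 had a summit, 799 bp downstream and at the 1.19 percentile. When the most 5′ start alone was used, Pax6 no longer counted as open in all 4 lists. Sox1, a SOX factor of the early neural plate, had its RefSeq promoter at 1 exact match in the genome, which puts its start at position 12395519 of chromosome 8. Its percentiles were 32.5 and 64.2 with the stop cassette and 44.8 and 25.9 in wild type. In each list the nearest summit lay within 84 bp of that start, in sequence that the annotation gives as an intron of Gm5607.

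Neurog1 (ENSMUSG00000048904.4, chromosome 13, 56351866 to 56353524, minus strand), a proneural factor of cranial and spinal sensory neurons, had the weakest promoter of the group. Its summits ranked at 16.9 in stop cassette replicate 2, 0.431 in wild-type replicate 1 and 28.0 in wild-type replicate 2. In stop cassette replicate 1 the nearest summit was 6401 bp away. Neurog2 (ENSMUSG00000027967.7, chromosome 3, 127336054 to 127338549, plus strand), its relative in spinal and cortical progenitors, had 12.5 and 16.6 with the stop cassette and 60.1 and 24.9 in wild type. These low ranks described only the part of the locus inside the 1 kb limit. A region over the single-start gene's coding exon, chr3:127336222-127337700, had its strongest summit 1094 bp downstream of the start and ranked at 82.9 and 93.5 with the stop cassette and at 89.8 and 69.5 in wild type.

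Neurod1 (ENSMUSG00000034701.8, chromosome 2, 79292678 to 79296908, minus strand), a factor of differentiating neurons, had promoter percentiles of 72.1 in stop cassette replicate 2, 54.7 in wild-type replicate 1 and 67.0 in wild-type replicate 2. Stop cassette replicate 1 had its nearest summit 2210 bp downstream, in the coding exon, at the 53.3 percentile. That exon region, chr2:79294180-79294788, was held by all 4 lists, with 84.3 in stop cassette replicate 2, 76.2 in wild-type replicate 1 and 52.3 in wild-type replicate 2. It also lies 288 bp from an annotated start of the lincRNA Gm17325, and a start of Cerkl lies 147 bp from the strongest promoter summit of Neurod1, so these regions cannot be assigned to Neurod1 alone. When the whole gene body and 1 kb around it were searched, an addition made after the values were seen, 6 of 7 members had a summit in all 4 lists, against 62.3% of protein-coding genes. The exception was Neurog1.

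**Figure D1:**
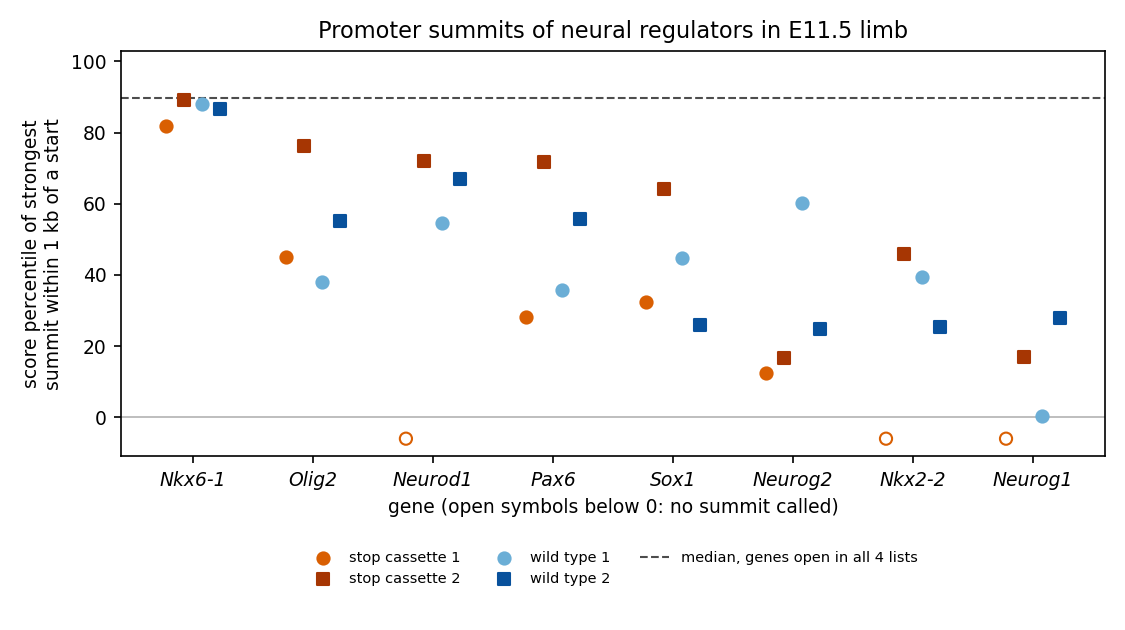
Score percentile of the strongest summit within 1 kb of an annotated start (vertical axis, percent) for each gene (horizontal axis, ordered by the mean over lists), with 1 point per library and open symbols where no summit was called. Nkx6-1 lies between 82.0 and 89.2 in all libraries, near the dashed median of 89.7 for genes open in all 4 lists, and the 3 open symbols all belong to stop cassette replicate 1.

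Apart from Nkx6-1, these promoters ranked low among open promoters, although several lay in the upper part of their lists of all peaks. Protein-coding genes with a promoter summit in all 4 lists had a median of 89.7 for the mean percentile. Ranked among the called promoters of protein-coding genes only, Nkx6-1 had percentiles of 31.1 and 37.0 (stop cassette) and 56.5 and 43.7 (wild type). The other 6 annotated members stood between 0.0757 (Neurog1, wild-type replicate 1) and 17.6 (Olig2, stop cassette replicate 2) wherever they had a summit. Most of these promoters thus passed the peak threshold with ranks far below those of a typical open promoter.

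Base composition had no part in choosing the genes, and most of their starts were rich in CpG. Over the 1000 bp around the most 5′ start, the ratio of observed to expected CpG was 0.566 for Pax6, 0.626 for Nkx2-2, 0.681 for Neurod1, 0.742 for Olig2, 0.755 for Neurog1, 0.769 for Nkx6-1, 0.789 for Sox1 and 0.854 for Neurog2. The median over all protein-coding genes was 0.549. With limits of 0.6 for this ratio and 50% for GC content, 6 of 7 annotated members had a CpG island-like start, against 44.2% of all protein-coding genes. Pax6 was the exception at its most 5′ start, while 500 bp around the strongest summit of its open internal region had a ratio of 0.801. Of all genes with such a start, 93.3% had a promoter summit in all 4 lists, compared with 29.1% of the remaining genes. Of the 6 members with such a start 3 did, namely Olig2, Neurog2 and Nkx6-1. The share of open genes rose with the ratio, from 6.51% below 0.2 to 67.2% between 0.4 and 0.6, 90.5% between 0.6 and 0.8, 95.5% between 0.8 and 1.0 and 97.4% above 1.0. It was 22.5% between 0.2 and 0.4.

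Short promoter motifs were searched on both strands from 250 bp before to 50 bp after the most 5′ start. The letters GGGCGG, the core of the GC box, were present in 6 of 7 annotated members and in 43.4% of all protein-coding promoters. CCAAT was present in 4, against 37.9%, and TATAAA in Olig2 only, against 13.4%. The bHLH E-box CAGCTG was in none, against 15.2%. With Sox1 the counts were 7 for GGGCGG and 5 for CCAAT.

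**Figure D2:**
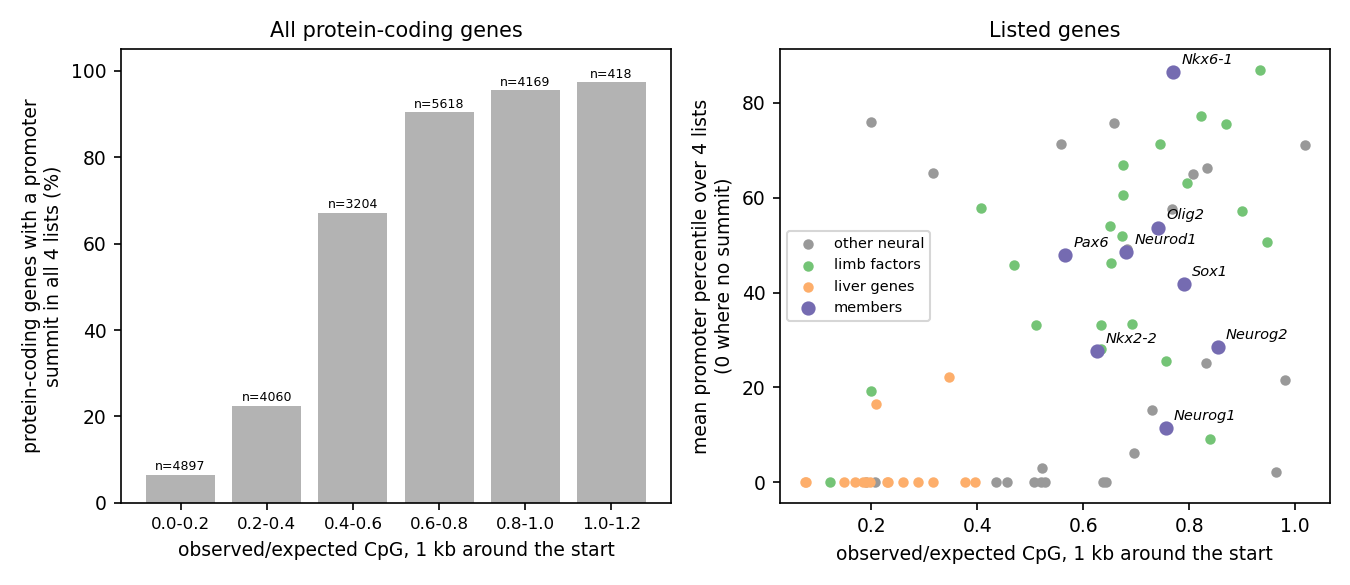
Left, percent of protein-coding genes with a promoter summit in all 4 lists (vertical axis) by the ratio of observed to expected CpG in the 1 kb around the most 5′ start (horizontal axis, bins of 0.2, with the number of genes above each bar). Right, mean promoter percentile over the 4 lists against the same ratio for the members (labelled) and 3 comparison lists. The members lie between 0.566 and 0.854 on the horizontal axis and, apart from Nkx6-1, at or below a mean percentile of 53.7, while most liver genes lie at 0.

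Distal regions were those whose summits lay in the gene body or within 50 kb of it and more than 1 kb from an annotated start of any gene. The 7 annotated members had 37 of them, and 23 were held by 1 list alone, 14 of these by stop cassette replicate 2, the longest list. Over all accessible regions near the members, promoters included, 47.2% were in 1 list and 24.5% in all 4, against 35.4% and 32.0% of all regions in the genome. Regions in stop cassette replicate 2 alone made up 28.3% of those near the members and 22.1% of all regions. Held by all 4 lists were 5 regions, at Pax6, Nkx2-2, Neurog1 and Neurog2. Pax6 and Nkx2-2 had theirs inside the gene body, and so only Neurog1 and Neurog2 had a region outside the gene in all 4 lists. A promoter summit in all 4 lists with no such distal region was the pattern of Nkx6-1 and Olig2, which is 2 of 7. Over all protein-coding genes 25.6% had this pattern. A distal region in all 4 lists was missing for 3 of 7 members (Neurod1 as well) and for 53.4% of all genes. Among genes with an open promoter in all 4 lists 44.6% had no shared distal region, compared with 2 of the 4 members. Sox1 also had this pattern.

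Outside gene bodies, the strongest distal regions by mean percentile were those of Neurog2. One, chr3:127328158-127329444, had its strongest summit in intergenic sequence 7645 bp upstream of the start and ranked at 81.7 and 92.4 with the stop cassette and at 39.9 and 77.7 in wild type. The other, chr3:127342632-127343481, lay 6951 bp downstream of the start and 4456 bp past the gene's end, at 75.2 and 84.2 with the stop cassette and 71.5 and 64.0 in wild type. Of these 8 values 7 exceeded the percentile of the Neurog2 promoter within 1 kb in the same list. The exception was the 39.9 of wild-type replicate 1, where the promoter had 60.1. That comparison depends on the 1 kb limit, which leaves out the strongest summits over the coding exon. The coding exon region ranked at 82.9 and 93.5 with the stop cassette and at 89.8 and 69.5 in wild type. Of the 8 flank values only the 77.7 of wild-type replicate 2 exceeded that region in the same list. The nearest start of another gene, Alpk1, lay 46253 bp from the downstream summit. Neurog2 was therefore flanked on both sides by open regions in all 4 limb libraries.

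The sequences of these flanking regions are shown because, unlike most distal regions of the group, they are rich in CpG. Each line gives 180 bases around the strongest summit on the plus strand of NCBIM37 (mm9), with CpG in capitals. The upstream region of Neurog2 (chr3:127328319-127328498) holds 19 CpG, its downstream region (chr3:127342915-127343094) 14 and the region of Neurog1 (chr13:56322831-56323010) 9. Counting 250 bp on each side of the summit, the ratio of observed to expected CpG was 0.734 and 0.601 for the Neurog2 regions and 0.594 for that of Neurog1. The median was 0.411 over the 23 distal regions held by 1 list.
Neurog2 upstream: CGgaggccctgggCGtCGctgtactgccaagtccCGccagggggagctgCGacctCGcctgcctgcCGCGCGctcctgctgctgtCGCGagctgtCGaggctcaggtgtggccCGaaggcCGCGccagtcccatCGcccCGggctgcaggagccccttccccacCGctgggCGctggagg
Neurog2 downstream: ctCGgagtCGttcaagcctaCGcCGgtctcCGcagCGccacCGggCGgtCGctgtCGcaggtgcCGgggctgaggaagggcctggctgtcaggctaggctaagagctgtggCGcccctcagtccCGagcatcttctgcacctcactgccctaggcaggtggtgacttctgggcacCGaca
Neurog1 distal: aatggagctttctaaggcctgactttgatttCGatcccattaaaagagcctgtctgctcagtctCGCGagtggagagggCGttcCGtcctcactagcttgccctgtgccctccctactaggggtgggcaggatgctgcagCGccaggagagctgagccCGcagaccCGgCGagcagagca

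At Neurog1, the shared distal region (chr13:56322277-56323443) lay in intergenic sequence 30603 bp downstream of the start. It ranked at 7.55 and 70.4 with the stop cassette and at 22.4 and 27.0 in wild type. At 37189 bp upstream of the Neurog1 start a region over a UTR of Cxcl14, a chemokine gene, was held by 3 lists. At Nkx2-2, the region inside the gene (chr2:147003307-147005021), with its strongest summit 1488 bp before the annotated end, ranked at 78.5 and 87.7 with the stop cassette and at 80.3 and 66.0 in wild type. It was the strongest region of the Nkx2-2 locus in every list. At Pax6, the shared region (chr2:105527612-105528377) was intronic and weak, at 3.00, 58.9, 7.31 and 12.7 in the order of stop cassette replicates 1 and 2 and wild-type replicates 1 and 2.

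The remaining members had no distal region in more than 3 lists. The Sox1 locus had one in 3 lists (chr8:12439040-12439567), 43771 bp downstream of the start. At Olig2 the region held by most lists (chr16:91188617-91189204) was 36841 bp upstream and was held by both stop cassette lists, at 7.55 and 15.5. The strong region in the Olig2 window was the start of its paralogue Olig1, held by all 4 lists at 80.4, 85.7, 8.37 and 85.4 in the same order. At Neurod1 a region 42781 bp upstream was held by both stop cassette lists, at 21.6 and 75.7. The distal regions of Nkx6-1 were each in a single list, the highest in an intron 1806 bp downstream of the start at the 56.1 percentile of stop cassette replicate 2.

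**Figure D3:**
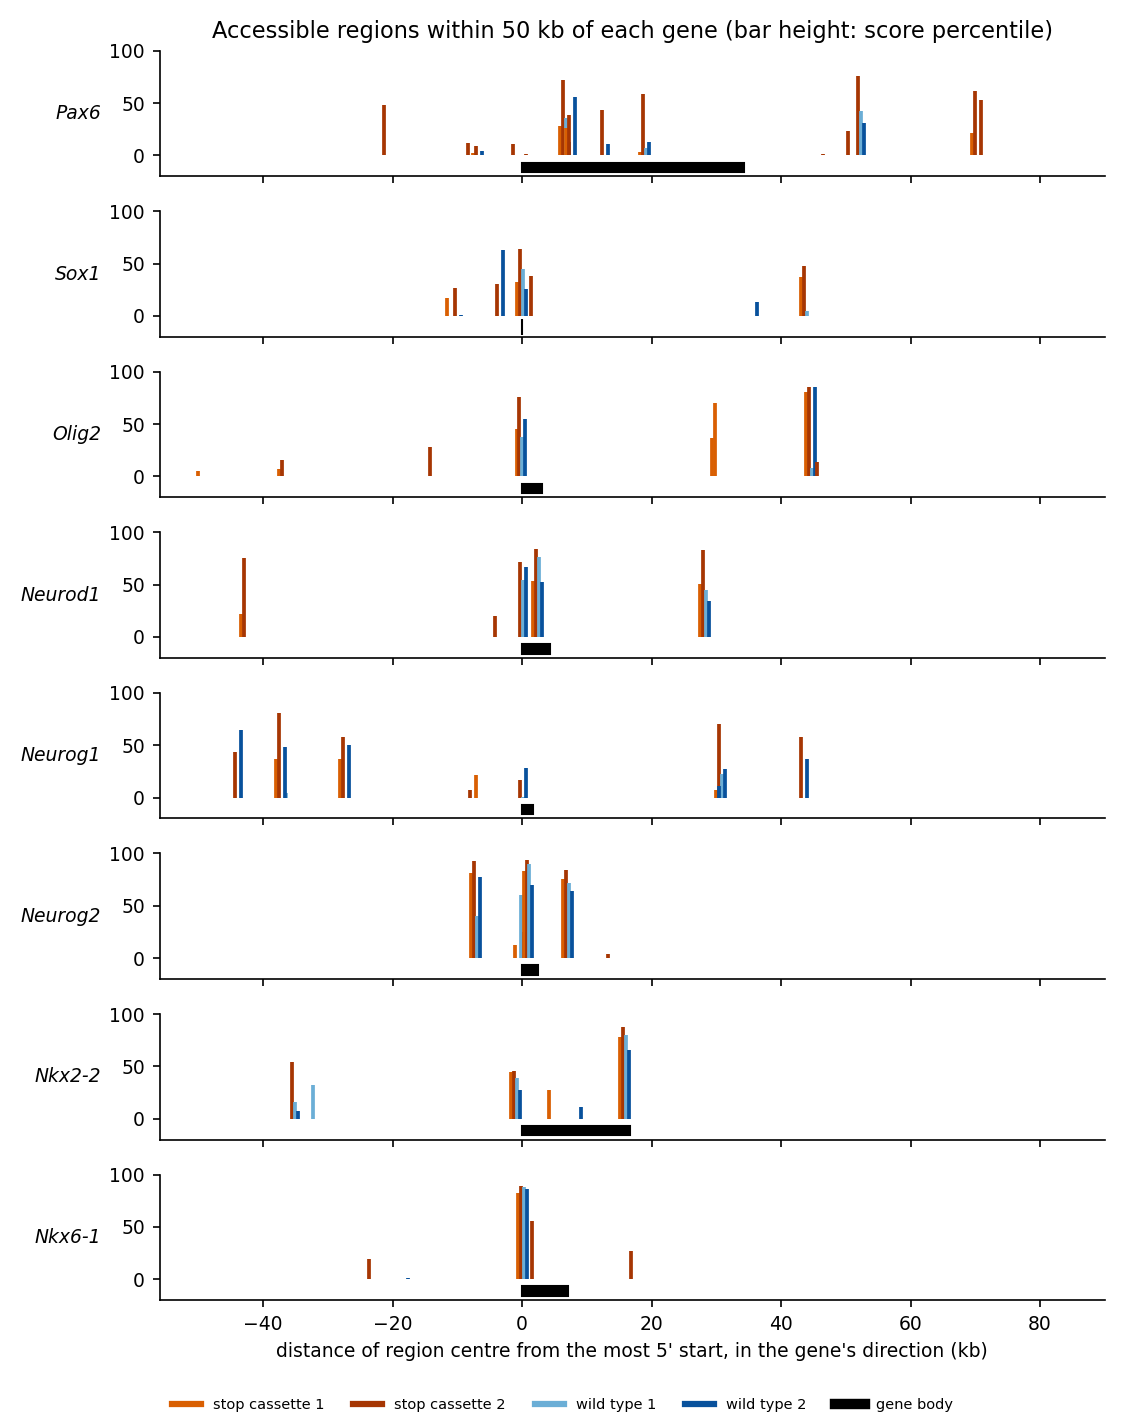
Accessible regions within 50 kb of each gene: horizontal axis, distance of the region's centre from the most 5′ start in the gene's direction (kb), with the 4 libraries drawn side by side; vertical axis, score percentile of the region in that library. Black bars mark gene bodies (a tick marks the start of Sox1). Nkx6-1 has 1 region in all 4 libraries, at its start, whereas Neurog2 has 3, over its coding exon and on either side.

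The comparison lists were also chosen by name, with earlier results of these data known. Over all protein-coding genes 57.5% had a promoter summit in all 4 lists. Of 24 other neural regulators 9 had a promoter summit in all 4 lists, 6 in some lists (Sox3, Nkx6-2, Ptf1a, Otx2, Pax2 and Tlx3) and 9 in none (among them Pax7, Neurod6, Dbx1, Olig3, Neurog3, Neurod2, Nkx2-9 and Dbx2). The members had none without a promoter summit. The median of the mean promoter percentile, with 0 where no summit was called, was 47.9 for the members and 10.7 for the other neural regulators, of which Neurod4 was highest at 76.0. It was 51.4 for 22 limb transcription factors, from 0 for Tbx5 to 87.0 for Gli3, and 17 of the 22 were open in all 4 lists. Of 16 liver genes 0 were open in all 4 lists and 14 in no list, with Apob highest at 22.3. All 8 housekeeping genes were open in all 4 lists, with Eef1a1 highest at 96.0. The values of the members lay within the range of the limb factors. That range is wide and also holds every other neural regulator and every liver gene listed, so it does not set the members apart.

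Distal regions held by all 4 lists numbered a median of 0.745 per 100 kb searched for the members and 0.739 for the limb factors, and the means were 0.648 and 1.05. The members' median was 0 at equal list length, at a score of at least 5 and with a window of 20 kb. The other neural regulators had a median of 0 and a mean of 0.480. All protein-coding genes had a median of 0 and a mean of 0.595. The liver genes, of which 14 of 16 had no promoter summit, had a mean of 1.18. Regions were counted by position and not assigned to a target gene, and genes that lie close together can count the same region. The numbers of members and limb factors are small and the ranges overlap, and no difference between the lists was tested.

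**Figure D4:**
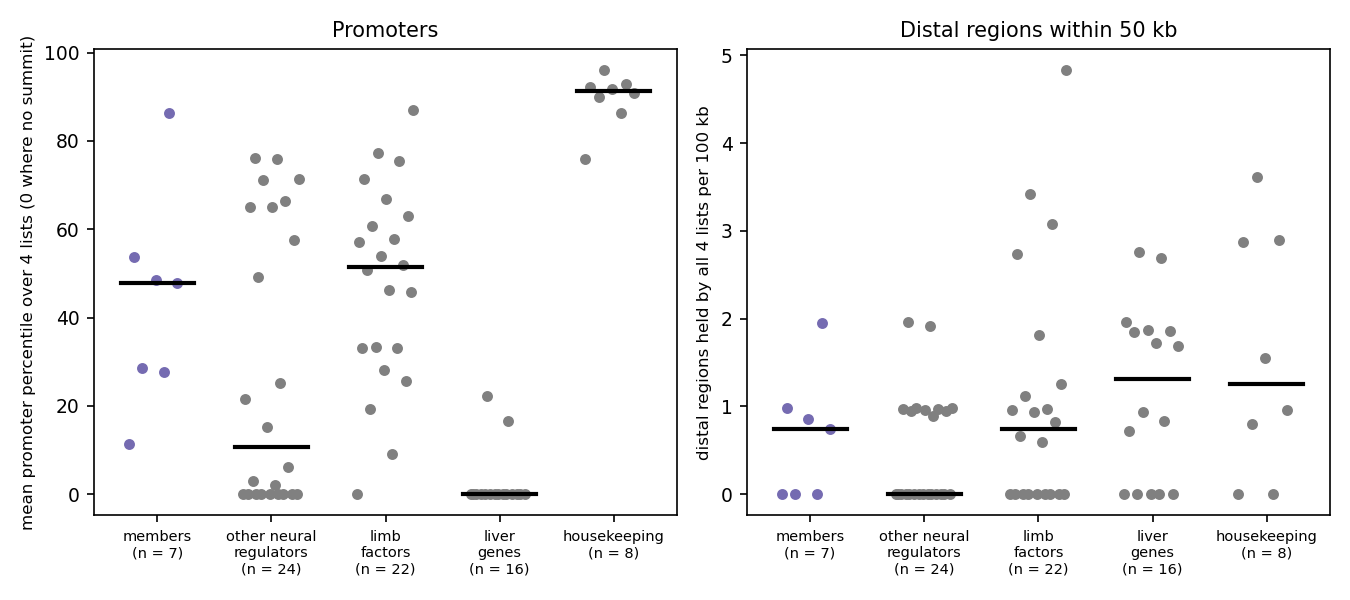
Each point is a gene and each bar the median of its list: left, mean promoter percentile over the 4 lists (0 where no summit was called); right, distal regions held by all 4 lists per 100 kb searched. The median for promoters is 47.9 for the members, 10.7 for the other neural regulators and 51.4 for the limb factors, with liver genes at 0 and housekeeping genes at 91.3.

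Among the other neural regulators, Mnx1, a motor neuron factor, was most like the members over 8 scaled values (promoter percentile and distal summits per 100 kb in each list), at a Euclidean distance of 1.34 from their mean. Ptf1a followed at 1.74. Mnx1 had promoter percentiles of 30.5 and 66.2 with the stop cassette and 64.4 and 69.4 in wild type. It had 1 distal region in all 4 lists.

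The comparison of genotypes asks whether accessibility at these genes differs when the stop cassette is present. With 2 libraries per genotype an exact permutation test has 6 assignments and cannot give a two-sided p below 0.333. Promoter percentiles, with 0 where no summit was called, overlapped between genotypes for 6 of 7 annotated members. Neurog2 was the exception, with a mean percentile of 14.5 ± 2.86 in stop cassette libraries against 42.5 ± 24.9 in wild-type libraries (SD over 2 libraries each). The exact permutation p was 0.333, or 0.764 after Benjamini-Hochberg adjustment over 14648 genes, of which 0 passed 0.05 by this test, adjusted or not. Both wild-type lists ranked higher for 3.99% of genes with a promoter summit and both stop cassette lists for 39.6%, a pattern shown by 0 members. With a limit of 2 kb the Neurog2 difference changed sign, from -27.97 to 8.54 percentage points, because the region over the coding exon then entered. The median difference over the members was -5.75 percentage points, against 3.84 over all genes with a promoter summit, and without stop cassette replicate 1 it was 11.2. At equal list length it was -17.9, and all 7 members were then lower with the stop cassette, with no exact permutation p below 0.333. That cut drops the weakest peaks and ranks the rest anew. It lowers percentiles by construction, and more in the longer stop cassette lists. The same median over all genes was not computed at equal length, so this shift is not a result about the members.

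Distal summits were counted singly, so a region with several summits adds each of them. They were more numerous with the stop cassette on average at all 7 annotated members, by 0.5 (Nkx2-2) to 4 (Pax6), in lists that were also longer. The share of all protein-coding genes with this direction was not computed, but their median difference of 1.5 had it too. At equal list length the differences shrank to 1 for Olig2, 0.5 for Pax6, Neurod1, Neurog2 and Nkx6-1, 0 for Neurog1 and -0.5 for Nkx2-2, each with an exact permutation p of 1. Olig2 had 4 and 3 distal summits with the stop cassette and 0 and 0 in wild type (exact permutation p = 0.333, n = 2 each). Neurod1 had 1 and 2 against 0 and 0 (exact permutation p = 0.333, n = 2 each). At the other 5 members the counts of the genotypes overlapped. Non-overlapping counts in this direction were found for 41.8% of all protein-coding genes, so 2 of 7 members did not stand above the background. In the other direction there were 0 members and 0.268% of genes. Over the 7 genes the distal summits made up 0.0316% (95% Wilson interval 0.0214% to 0.0467%) and 0.0445% (0.0336% to 0.0590%) of the stop cassette lists and 0.0271% (0.0161% to 0.0455%) and 0.0351% (0.0236% to 0.0522%) of the wild-type lists. These intervals overlap and cover counting error only. With the lists as deposited, the median difference over the members was 2.5 distal summits, against 1.5 over all protein-coding genes. At equal list length the members' median was 0.5.

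**Figure D5:**
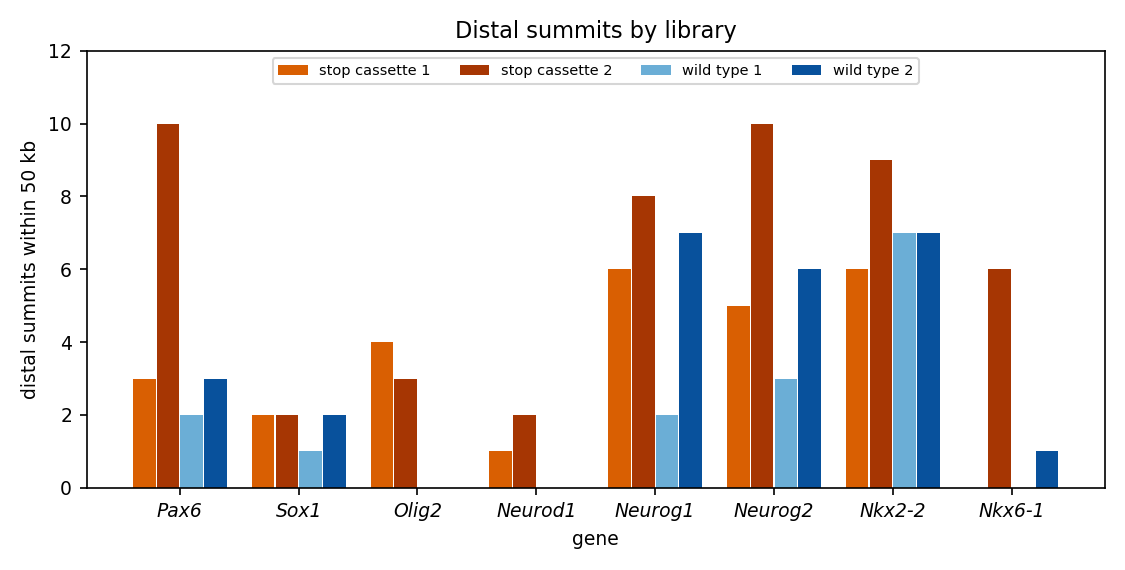
Number of distal summits within 50 kb (vertical axis) of each gene (horizontal axis), with 1 bar per library. Summits and not regions are counted. At Nkx6-1, 4 of the 6 summits of stop cassette replicate 2 lie in 1 region. Olig2 and Neurod1 have bars for the stop cassette libraries only, and stop cassette replicate 2 has the highest bar at 6 of the 7 annotated genes.

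The stop cassette lists held 79083 and 107827 peaks and the wild-type lists 51701 and 68471, and the read depth is unknown. Of 7 limb mesenchyme markers, 4 had a promoter summit in all 4 lists (Prrx1, Msx1, Twist1 and Pitx1) and Tbx5 had none. The share over all protein-coding genes was 57.5%, so this count lay at the background. Neurons send axons but no nuclei into the limb, and limb buds can hold Schwann cell precursors of neural crest origin. Of 6 neural crest and Schwann cell markers 2 were open in all 4 lists, among them Erbb3 with a mean percentile of 74.9, and 3 had no promoter summit in any list, among them Sox10 and Foxd3. Of 6 neuronal markers 4 were open in all 4 lists, from 54.9 for Tubb3 to 92.8 for Elavl4, a count also near the 57.5% of all genes. The other neuronal markers were Stmn2, with a promoter summit in 2 lists, and Elavl3, with one in 1 list. The part of such cells in the members' summits was not tested, and in these bulk libraries few cells with an open site and a weakly open site in many cells cannot be told apart.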

How the data were processed

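ATAC-seq peak lists of 4 libraries were analysed, 1 list per library. Reads were aligned with Bowtie2 2.2.6 to mm9 and Picard was among the tools, per the submitters' processing notes; peak names in the deposited lists carry terms for removal of duplicates and of mitochondrial reads and a mapping quality of 30. The peak caller, the shift of reads for transposase binding and any control are not given in the sources used here. Each list gives summits of 1 bp with a value that behaves as −log10 of a q-value in the deposited lists, with a minimum of 1.30 in wild-type replicate 1. It was used as a percentile within its own list, since depth is unknown. Genes came from GENCODE M1 on NCBIM37, the same build; 0 summits fell past the end of a chromosome.

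Summits were extended by 250 bp on each side and merged into regions. Genes, lists and alternatives were chosen with earlier results of these data known. All 8 members are named, together with, for each, the distal region held by most lists (ties by mean percentile), other neural regulators open in fewer than 4 lists, the 3 most like the members, and the highest and lowest gene of each list; some of these are not reported here. A percentile of 0 stands for no promoter summit. Genotypes were compared with exact two-sided permutation tests; nothing says that replicates came from separate embryos, so p-values measure the spread between libraries. Python 3.11.15, pandas 2.3.3, numpy 2.4.6, scipy 1.17.1 and pysam 0.24.0 were used. Summit assignment was tested on simulated lists. The RefSeq promoter of Sox1 came from a GRCm38.p6 table and was matched by sequence only, no coordinate being converted; counts with Sox1, the search of whole gene bodies and the limits for a CpG island-like start were added after seeing the data. Alternatives were equal list length, a stricter score, other windows and extensions, the most 5′ start alone, distal from own starts only, each library left out and a replicate block.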

Additional observations from a re-analysis of the deposited data

How the results depend on the processing

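The count of 4 members with a promoter summit in all 4 lists was 2 at equal list length (Olig2 and Nkx6-1) and 1 at a score of at least 5 (Nkx6-1), where fewer peaks enter by construction; the shares of all genes were then 54.7% and 51.3%. It ranged from 4 to 7 with 1 library left out, with 7 without stop cassette replicate 1. Those runs ask for a summit in 3 lists only, which can raise the count by construction. The count of 2 members with a promoter but no shared distal region was 1 at the stricter score (Nkx6-1) and 1 when starts of other genes counted as distal (Nkx6-1). The shares of all genes with this pattern were then 33.7% and 7.54%, against 25.6% in the main setting. With 1 library left out the count was 2 to 3, and the share of all genes with the pattern was not computed. The median promoter difference of -5.75 was -17.9 at equal list length, where the longer stop cassette lists lose rank by construction. It turned to 0.0168 at the stricter score and 4.31 with a limit of 2 kb. It ranged from -17.5 to 11.2 percentage points (11.2 without stop cassette replicate 1) with 1 library left out. The median difference of 2.5 distal summits was 0.5 at equal list length, 1.5 at the stricter score, 1.5 within 20 kb and 5 within 100 kb, and 0.5 (without stop cassette replicate 2) to 3.5 with 1 library left out.

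With all libraries, promoter differences of single members did not reverse in 29 of 35 alternatives and distal differences in 41 of 42; with 1 library left out, in 20 of 28 and 26 of 28. No exact permutation p was below 0.333. The cause of the reversals was not tested. With all libraries they were Pax6 (-17.9) and Olig2 (-6.12) promoters and Nkx2-2 distal summits (-0.5) at equal length, Nkx2-2 (5.61) and Nkx6-1 (0.0168) promoters at the stricter score, and Nkx2-2 (11.8) and Neurog2 (8.54) promoters at 2 kb. With 1 library left out, promoter differences of Neurod1 ranged from -60.9 to 11.2, Nkx2-2 from -32.4 to 13.4, Nkx6-1 from -5.29 to 1.93, Neurog1 from -19.5 to 8.03, Pax6 from -17.5 to 26.1 and Olig2 from -1.59 to 29.6, and distal differences of Nkx6-1 from -0.5 to 5.5 and Nkx2-2 from -1 to 2. Without stop cassette replicate 1 the promoters of Neurod1 (11.2), Nkx2-2 (13.4), Nkx6-1 (1.93) and Neurog1 (2.70) reversed. Without stop cassette replicate 2 the promoters of Pax6 (-17.5) and Olig2 (-1.59) and the distal summits of Nkx2-2 (-1) and Nkx6-1 (-0.5) did. Without wild-type replicate 1 Pax6 (-5.76) did, and without wild-type replicate 2 Neurog1 (8.03).

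With replicate numbers as a block, the mean differences stay by construction, for example -27.97 for Neurog2, and the smallest exact sign-flip p was 0.5. Deviations of same-numbered libraries correlated at 0.198 over 12860 promoters, and the labels do not say what a number shares.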
